A study of Saccharomyces cerevisiae with 8 samples.

Results

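The NaCl responses of 2 mutant strains of *Saccharomyces cerevisiae*, *cdc14-3* and *snf1*, were set against each other gene by gene. The comparison used every array whose genotype label names 1 of these mutations alone, 2 *cdc14-3* arrays and 3 *snf1* arrays, which are 5 of the 8 arrays analyzed. For each feature, the mean log2 ratio on the *snf1* arrays was subtracted from the mean on the *cdc14-3* arrays, and this was repeated on the 4 arrays whose cells had been held for 2 h at 35 °C. All strains were of the W303 background and were grown in rich YPD medium at 25 °C, shifted to 35 °C, and exposed there to 0.7 M NaCl for 30 min. The *snf1* strain lacks the kinase Snf1. Its replicate 1 was held at 35 °C for 90 min before NaCl, and its replicates 2 and 3 for 2 h. The *cdc14-3* strain carries a temperature-sensitive form of the phosphatase Cdc14 that does not work at 35 °C, and both of its arrays, replicates 2 and 3, were held for 2 h. Another strain with both mutations, *cdc14-3 snf1*, gave 1 array at 90 min and 2 arrays at 2 h and entered only the estimate of the spread and the description of where it lay between the others. Treated and unstressed cells of a strain shared an array, so a difference between strains may come from either side of that ratio. No wild-type arrays were analyzed here.

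Cdc14 is held in the nucleolus for most of the cell cycle and is released in anaphase, when it removes phosphates placed by the cyclin-dependent kinase and lets cells leave mitosis. Cells that lack its activity stop late in mitosis with divided nuclei. Snf1 is the yeast AMP-activated protein kinase, and it is best known for lifting glucose repression, through Mig1, Cat8 and Adr1, when glucose runs low. Salt stress acts through the Hog1 kinase and through the general stress factors Msn2 and Msn4, which raise genes for glycerol synthesis, ion export and stress defense while genes for making ribosomes fall.

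The 2 mutated genes were read first. *SNF1* had log2 ratios of 2.41, -0.30 and -0.43 on *snf1* replicates 1 to 3 and of -0.34 and -0.27 on *cdc14-3* replicates 2 and 3, so the strains overlapped and replicate 1 of *snf1* stood apart. Such a ratio does not measure a transcript's level and cannot check the deletion. *CDC14* read 0.46, 0.52 and 0.44 in *snf1* and -0.27 and -0.06 in *cdc14-3*, a difference of -0.64 (SE 0.19, adjusted p = 0.0441, limma with the Benjamini-Hochberg adjustment over all features tested, as for every adjusted p below). Values are given below in the same order, *snf1* replicates 1 to 3 and then *cdc14-3* replicates 2 and 3, and a difference is always *cdc14-3* minus *snf1* on the log2 scale. The direction, NaCl-treated over unstressed, was not stated with the values and was read from them: a list of glycerol and osmotic genes averaged between 1.03 and 2.94 on the 8 arrays and the cytosolic ribosomal protein genes between -1.56 and -0.38. The standard deviation over the features of an array lay between 0.72 and 1.10, and 92 to 703 of 6868 features were missing per array. Across 6096 features, *cdc14-3* replicates 2 and 3 were correlated at 0.92 (Pearson's r), replicates 2 and 3 of *snf1* at 0.88, and replicate 1 of *snf1* at 0.77 with either of its fellows. Genes are not independent replicates, and the labels number the arrays as replicates without saying that the cultures were separate, so p-values measure the spread between these arrays. Near-identical copies, such as the histone, *ENA*, *HXT6* and *HXT7*, and *PHO11* and *PHO12* genes, may share signal on tiled arrays, and so may overlapping genes.

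Of 6135 features tested, 1161 differed between the strains. In this fit 536 features (8.74%) were higher in *cdc14-3* and 625 (10.2%) were lower, while 2137 had an unadjusted p under 0.05. The median difference over all features was -0.02. On the 2 h arrays, 1060 of 6096 features (17.4%) were higher in *cdc14-3* and 1218 (20%) were lower. All 536 features higher in the first fit had the same sign at 2 h, and 532 of them were called there. The 2 h comparison used 4 of the same 5 arrays, and none of the 536 features overlapped between the strains, so their sign could not change. Of the 625 lower features, 607 were called at 2 h, 9 were not called and 9 were not tested there. Counting only whether arrays overlapped, every *cdc14-3* array lay above every *snf1* array for 1544 of 6102 features (25.3%) and below for 1642 (26.9%). These 2 directions changed balance with scaling: after quantile normalization 684 features were higher and 507 lower, or 57.4% of calls higher against 46.2% as deposited. The calls rested on the 2 *cdc14-3* arrays. Without its replicate 2 the fit on all arrays called 0 features, and so none in any group below (1348 had an unadjusted p under 0.05, and the smallest adjusted p was 0.0671), and without its replicate 3 it called 268, in each case with the lone array assumed to vary like the other strains. Leaving out *snf1* replicates 1, 2 or 3 gave 1911, 478 and 766 features. Each of the 1161 differences kept its sign in each of these 5 fits without 1 array of the single mutants, wherever it was tested. For the 536 higher and 616 lower features with values on all 5 arrays this had to be so. None of them overlapped between the strains, so a lack of overlap adds nothing to a call below. Leaving out *cdc14-3* replicates 2 or 3 from the fit of the 2 h arrays gave 1203 and 1393 features.

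**Figure D1:**
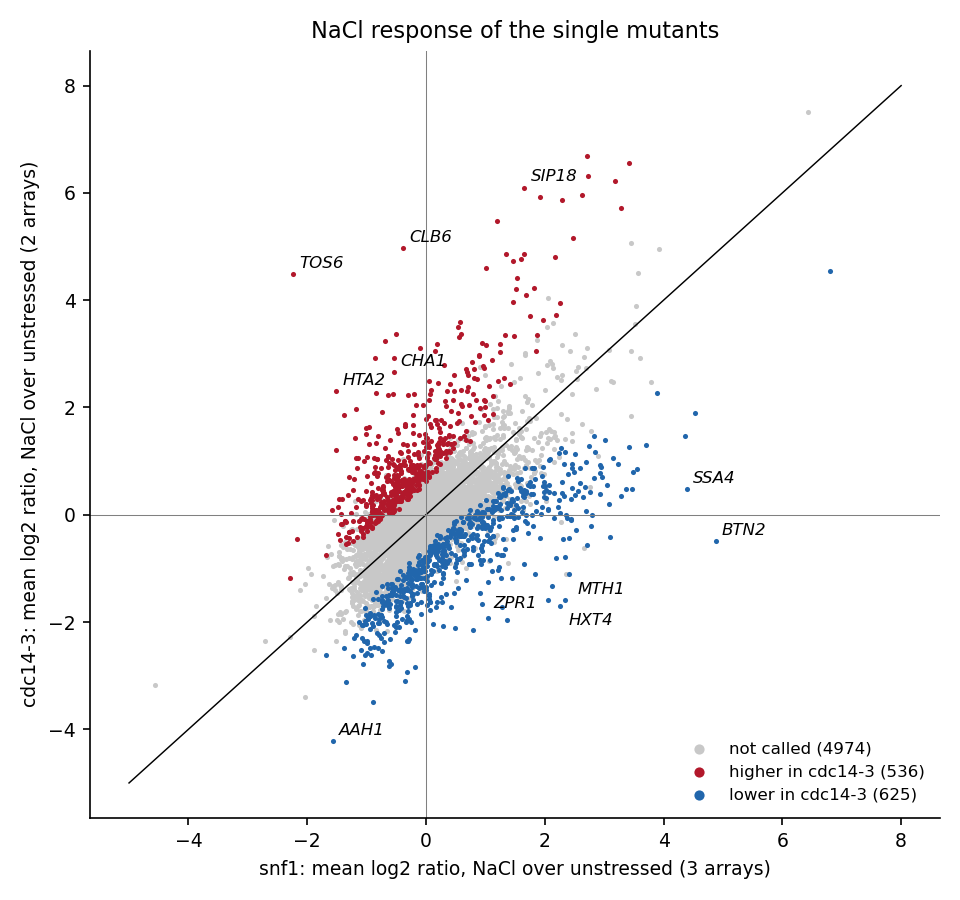
Mean log2 ratio (NaCl-treated over unstressed) of each of 6135 features in *snf1* (x axis, 3 arrays) against *cdc14-3* (y axis, 2 arrays), with the line of equal response. The 536 features called higher in *cdc14-3* are red, the 625 called lower are blue, and 4974 were not called. *TOS6* and *CLB6* lie far above the line, and *BTN2* and *SSA4*, high in *snf1*, lie far below it.

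The differing features fell into distinct patterns of response, as each strain's mean was also tested against 0. Among the 536 higher features, 197 rose in *cdc14-3* with no call in *snf1*, 177 fell in *snf1* with no call in *cdc14-3*, 81 rose in both strains and more so in *cdc14-3*, and 60 fell in *snf1* and rose in *cdc14-3*. Of the 625 lower features, 237 rose in *snf1* with no call in *cdc14-3*, 198 fell in *cdc14-3* with no call in *snf1*, 106 fell in both strains and more so in *cdc14-3*, and 42 rose in *snf1* and fell in *cdc14-3*. The higher features had a median difference of 1.09, with 81 of them over 2 and 27 over 3. The lower features had a median of -1.18, with 84 beyond -2 and 11 beyond -3. In *cdc14-3 snf1*, the mean lay between those of the single mutants for 508 of the 536 and 616 of the 625 features. It was nearer to *snf1* for 283 and 244 of them over all arrays, but for 164 and 84 on the 2 h arrays. These positions are descriptions, since the single mutants chose the features.

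The largest difference belonged to *TOS6*, which encodes a cell wall protein and is a target of the G1 factor SBF. Its log2 ratios were -3.05, -2.08 and -1.60 in *snf1* and 4.41 and 4.56 in *cdc14-3* (difference 6.73, SE 0.93, adjusted p = 0.00464). *TOS6* thus fell on all 3 *snf1* arrays and rose on both *cdc14-3* arrays. Next came *CLB6*, an S phase cyclin, with -0.29, -0.57 and -0.31 against 5.08 and 4.87 (5.36, SE 0.65, adjusted p = 0.00435). *SIP18*, a hydrophilin made under osmotic stress, read 2.50, 1.79 and 0.68 against 6.90 and 5.30 (4.44, SE 0.70, adjusted p = 0.00614). *CLB6* had no call in *snf1*, whereas *SIP18* rose in both strains. Neither gene's arrays overlapped between strains, as was required of the 15 largest named here. The others among the 15 largest were *FMP16* (4.27), *SPG4* (4.02), *TKL2* (3.98), *RNR1* (3.93), *PCL1* (3.87), *HTA2* (3.82), *CSI2* (3.79), *HBT1* (3.60), *PHM7* (3.58), *ALD3* (3.57), *GRE1* (3.52) and *AXL2* (3.47). They divided by the response of *snf1*. *FMP16*, *SPG4*, *TKL2*, *PHM7*, *ALD3* and *GRE1* rose in both strains, whereas *HTA2* and *CSI2* fell in *snf1* and rose in *cdc14-3*.

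In the other direction *BTN2*, whose product gathers misfolded proteins, led with 4.85, 5.18 and 4.59 in *snf1* against -0.37 and -0.60 in *cdc14-3* (difference -5.36, SE 0.66, adjusted p = 0.00435). *BTN2* rose strongly on every *snf1* array and lay a little under 0 on both *cdc14-3* arrays. *HXT4*, a hexose transporter, read 2.76, 2.12 and 1.87 against -1.97 and -1.45 (-3.96, SE 0.57, adjusted p = 0.00488). *MTH1*, a repressor of hexose transporter genes, read 2.93, 2.25 and 1.83 against -1.78 and -1.40 (-3.93, SE 0.60, adjusted p = 0.00546). Both of these genes rose in *snf1* and fell in *cdc14-3*. The next was *SSA4*, an inducible Hsp70 chaperone, at 4.71, 4.99 and 3.48 against 0.73 and 0.23 (-3.91, SE 0.75, adjusted p = 0.0115), followed by *ZPR1* (-3.64), a chaperone of a translation elongation factor. The rest of the 15 were *GUP2*, *FES1*, *WTM2* (-2.96), *AAC3* (-2.94), *LDS1* (-2.94), *APJ1* (-2.92), *SPO13* (-2.89), *AAH1* (-2.66), *YHB1* (-2.65) and *URA7* (-2.63). *SPO13* and *LDS1*, known from meiosis and spore formation, both rose in *snf1*, at 3.19 to 3.58 and 1.57 to 2.34. *AAH1*, the adenine deaminase that is shut off as cells become quiescent, fell in both strains, with -2.24, -1.33 and -1.12 in *snf1* and -4.41 and -4.04 in *cdc14-3*.

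Genes were then grouped into 39 lists by textbook function, each described by its count of calls and its median beside those of all features (8.74% higher, 10.2% lower, median -0.02). Lists with most of their calls in the higher direction held cell cycle genes of G1 and S phase, histones, osmotic and stress defense genes and storage carbohydrates. Those with most of their calls lower held chaperones, mitotic genes, ribosome synthesis, hexose transport and the pheromone response.

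**Figure D2:**
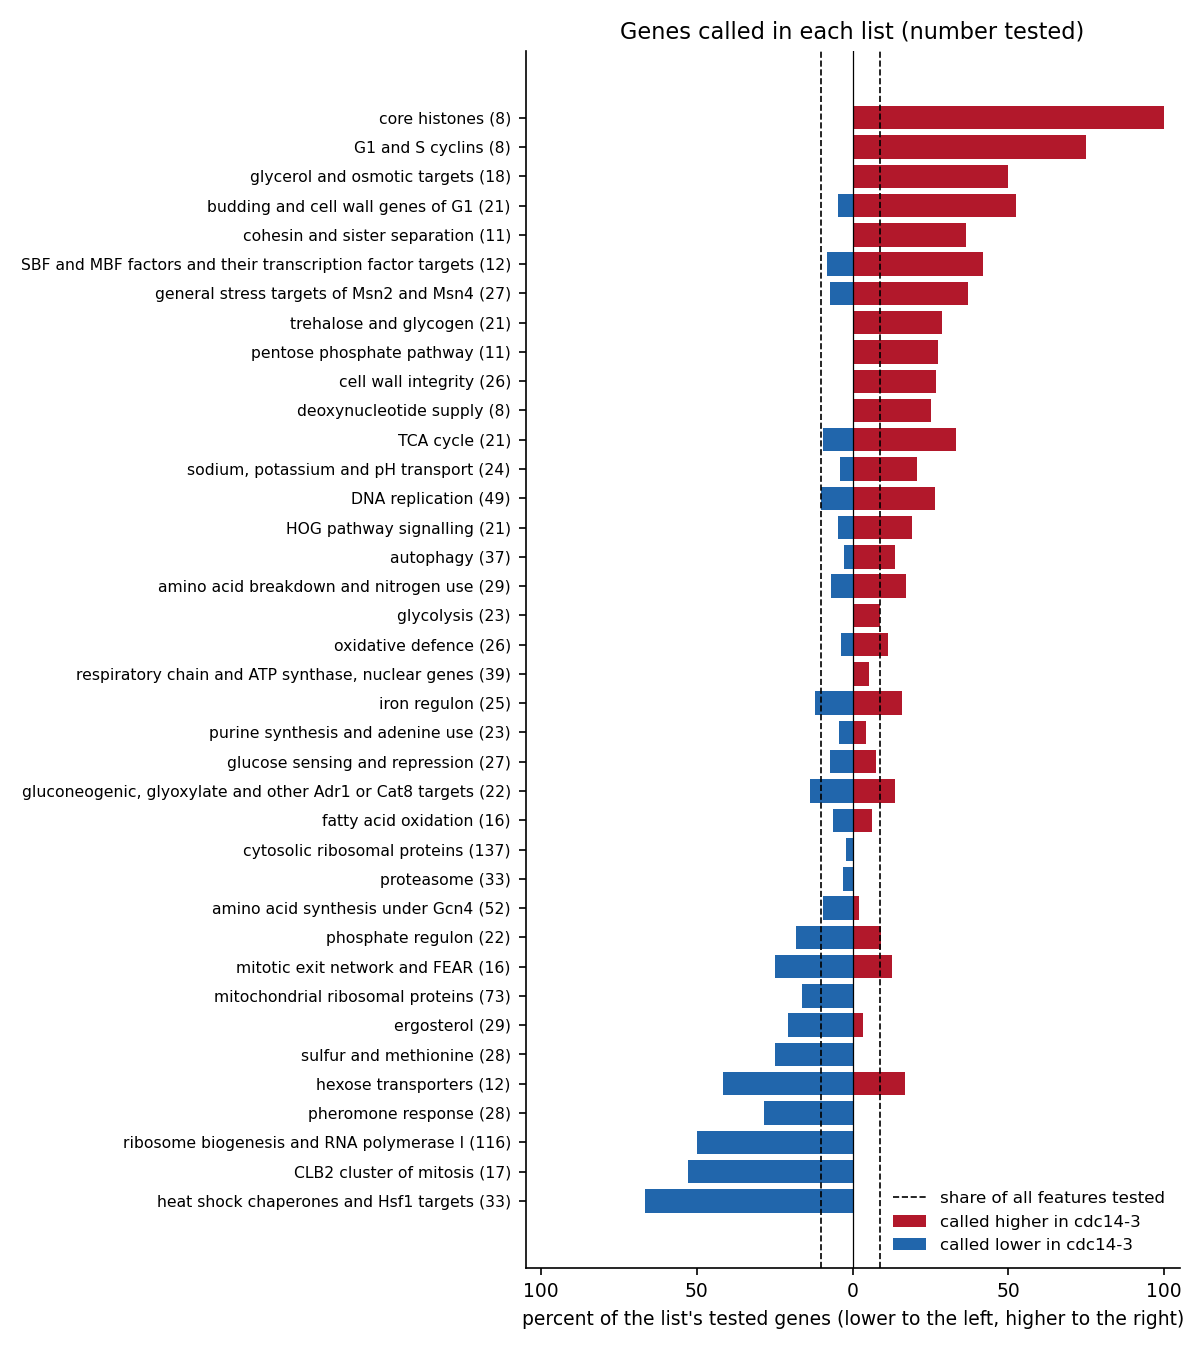
Percent of the tested genes of 38 lists called higher in *cdc14-3* (red, to the right) and lower (blue, to the left) in the fit on all arrays, with the number tested in parentheses and dashed lines at the 8.74% and 10.2% of all features. All 8 core histone genes were higher and 22 of 33 heat shock genes were lower.

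The cyclins of G1 and S phase, which drive the start of the cell cycle and DNA replication, were higher in *cdc14-3*: 6 of 8 tested were called, with a median difference of 2.16, and 0 were lower. *CLN2* read -1.86, -1.49 and -1.18 in *snf1* against 1.16 and 1.25 in *cdc14-3* (difference 2.72, SE 0.42, adjusted p = 0.00558). *CLN1* read -1.03, -1.17 and -0.83 against 1.35 and 1.67 (2.52, SE 0.34, adjusted p = 0.00453). These G1 cyclins fell in *snf1* and rose in *cdc14-3*. *CLB5*, which with *CLB6* starts replication, read -0.08, 0.14 and 0.05 against 1.76 and 1.91 (1.80, SE 0.23, adjusted p = 0.00437). *PCL1*, a G1 cyclin of the kinase Pho85, read -0.50, -0.57 and -0.47 against 3.05 and 3.67 (SE 0.50, adjusted p = 0.00437), and its relative *PCL2* differed by 1.43 (SE 0.25, adjusted p = 0.00826). The members without a call, *CLN3* and *PCL9*, each differed by 0.38. The count was 7 on the 2 h arrays, 5 without *cdc14-3* replicate 3 and 0 without *cdc14-3* replicate 2. From ratios alone, a higher ratio per cell and a larger share of cells at a cell cycle stage cannot be told apart. This holds for the genes below too. The study reports that cells with the mutant phosphatase stayed fully arrested in M phase during NaCl treatment, while genes like these cyclins rose. Before NaCl, the study adds, this arrest had lowered transcripts that peak in other phases. Cell cycle stage was not tested here in either strain.

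Factors of the G1 program and their targets moved largely the same way. Of 12 genes of the SBF and MBF factors and their regulators, 5 were higher and 1 lower. *YOX1*, a repressor made at the end of G1, read -1.15, -1.13 and -0.76 against 1.51 and 1.72 (difference 2.63, SE 0.40, adjusted p = 0.00546), and *NRM1*, which shuts off MBF, read -1.14, -0.84 and -0.47 against 0.86 and 0.59 (1.54, SE 0.26, adjusted p = 0.00701). *TOS4* (1.33), *YHP1* (1.65) and *SWI4* (0.72), the DNA-binding part of SBF, were also higher, and *TOS8* (-1.29) was lower. Among 21 budding and cell wall genes of G1, 11 were higher and 1 was lower, with a median of 1.07. *AXL2*, a landmark for axial budding, read -0.83, -0.60 and -0.20 against 3.11 and 2.73 (SE 0.52, adjusted p = 0.00546). *CSI2* read -1.14, -0.84 and -0.60 against 3.02 and 2.83 (SE 0.45, adjusted p = 0.00435), and *SVS1*, a wall protein, read -1.20, -0.51 and -0.19 against 2.28 and 2.17 (2.86, SE 0.37, adjusted p = 0.00437). For each of these 3 genes the strains did not overlap, as for every called feature with values on all 5 arrays. The 1 lower member was *GIC1*, an effector of the GTPase Cdc42, at -0.81.

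DNA replication genes were called higher at a larger share than all features. Of 49 tested, 13 were higher (26.5%) and 5 lower (10.2%, the share of all features), with a median of 0.33. *POL30*, the sliding clamp PCNA, read -0.25, -0.15 and -0.19 in *snf1* against 2.35 and 2.15 in *cdc14-3* (difference 2.45, SE 0.27, adjusted p = 0.00418). *POL12*, a subunit of the polymerase that makes primers, read -0.58, -0.60 and -0.74 against 1.10 and 1.10 (1.74, SE 0.19, adjusted p = 0.00389), and its partner *POL1* differed by 1.31. *DNA2* (1.18) and *RFA1* (1.17) were higher as well. The 5 lower genes were *CDC6* (-1.46), *MCM7* (-1.31), *MCM6* (-1.27), *MCM5* (-0.95) and *MCM2* (-0.92), which load or form the replicative helicase at origins. *MCM3* and *MCM4*, also of the helicase, were not called lower. *CDC6*, the loader, read 0.79, 1.01 and 1.13 against -0.40 and -0.56 (SE 0.20, adjusted p = 0.00453), thus rising in *snf1* and falling in *cdc14-3*. For deoxynucleotide supply, 2 of 8 genes were higher. *RNR1*, the large subunit of ribonucleotide reductase, read -1.15, -0.67 and -0.24 against 3.19 and 3.30 (SE 0.60, adjusted p = 0.00546), and *CDC21*, thymidylate synthase, differed by 1.31.

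All 8 core histone genes were higher in *cdc14-3*, with differences between 1.86 and 3.82 and a median of 2.69. *HTA2*, an H2A gene, read -1.94, -1.42 and -1.18 in *snf1* against 2.48 and 2.13 in *cdc14-3* (SE 0.58, adjusted p = 0.00546). *HHF2*, an H4 gene, read -1.79, -1.20 and -1.12 against 2.05 and 1.68 (difference 3.24, SE 0.43, adjusted p = 0.00437). For 6 of the 8 genes the fall in *snf1* passed the test, and for 7 the rise in *cdc14-3* did. The mean over the 8 genes was -1.51, -0.91 and -0.69 on the *snf1* arrays and 1.82 and 1.49 on the *cdc14-3* arrays. It was lowest on the 90 min array, and at 2 h all 8 genes were still called higher. The count was 5 without *cdc14-3* replicate 3 and 0 without its replicate 2. Cohesin genes, whose products hold sister chromatids together, gave 4 higher calls of 11, led by *MCD1*, the cleavable subunit, at 0.03, 0.48 and 0.06 against 3.13 and 3.23 (2.99, SE 0.36, adjusted p = 0.00435). The others were *IRR1* (1.37), *PDS5*, and the securin *PDS1* (0.95).

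Genes of mitosis in the *CLB2* cluster were lower in *cdc14-3* for 9 of 17 members and higher for 0, with a median of -0.75. *HOF1*, which works in cytokinesis, read 1.68, 1.36 and 0.75 in *snf1* against -1.28 and -1.06 in *cdc14-3* (difference -2.43, SE 0.28, adjusted p = 0.00435). *CDC20*, the activator of the anaphase-promoting complex, read 0.67, 0.61 and 0.73 against -1.22 and -1.20 (-1.88, SE 0.18, adjusted p = 0.00272). Both rose in *snf1* and fell in *cdc14-3*, as did *MYO1* (-1.34), the myosin of the contractile ring, and *MOB1* (-1.25), a mitotic exit kinase partner. *KIN3* fell in both strains and further in *cdc14-3* (-1.51). The cyclins of the cluster were not called, with differences of -0.70 for *CLB2* and 1.03 for *CLB1*. On the 2 h arrays 11 members were lower and 2 higher. Leaving out *cdc14-3* replicate 3 left 4 lower, leaving out its replicate 2 left 0, and without *snf1* replicate 2 there were 6. *EGT2*, which acts in cell separation, read -0.96, -0.47 and -0.25 against 2.24 and 2.26 (2.81, SE 0.37, adjusted p = 0.00437), and *CTS1*, the chitinase that splits mother from daughter, read -0.31, 0.33 and 0.20 against 2.50 and 2.01 (2.18, SE 0.37, adjusted p = 0.00753). In the mitotic exit network, 2 of 16 genes were higher, *LTE1* (1.31) and *CDC15* (0.89), and 4 were lower, namely *MOB1*, *BNS1* (-1.17), *CDC5* (-0.76) and *CDC14* itself.

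**Figure D3:**
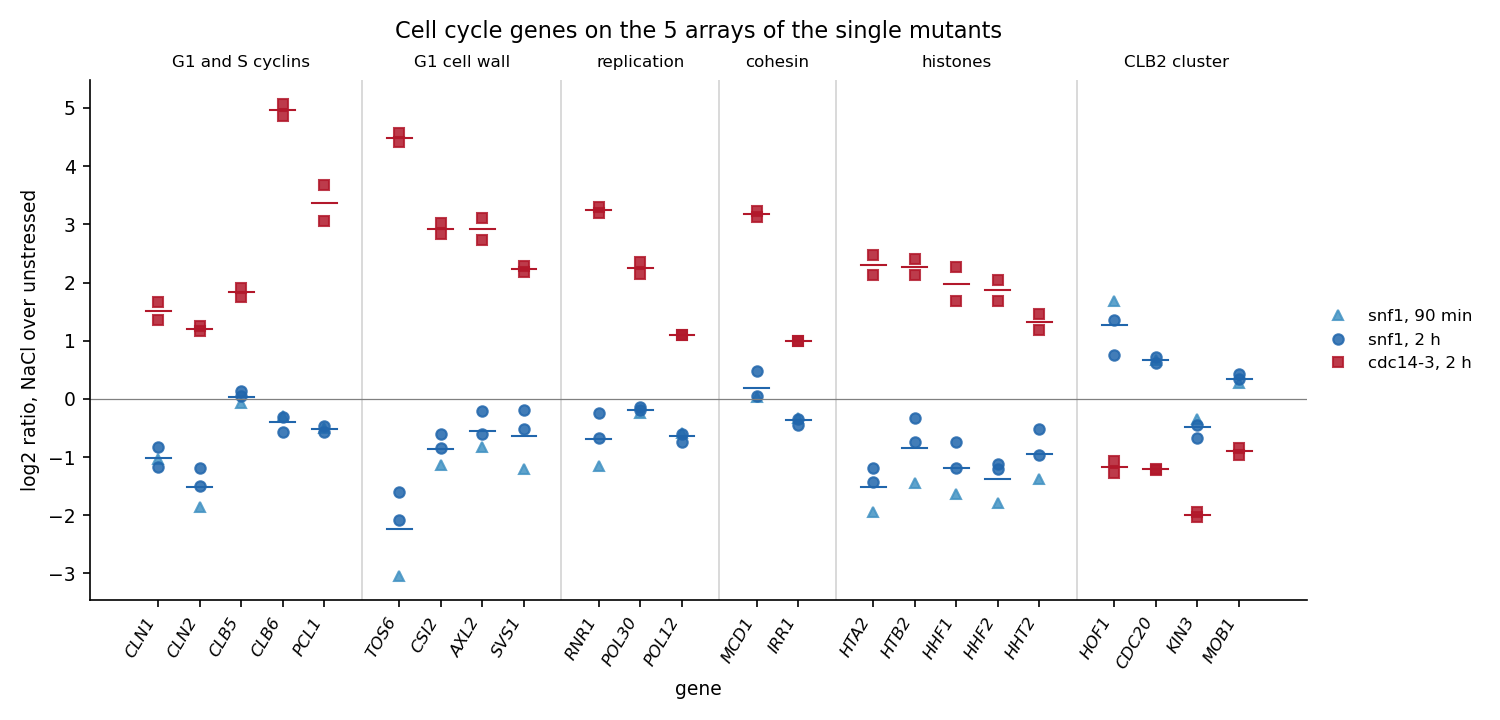
Log2 ratio (NaCl-treated over unstressed) of named cell cycle genes on each of the 5 arrays (triangles, *snf1* at 90 min; circles, *snf1* at 2 h; squares, *cdc14-3* at 2 h; short lines, strain means). The *cdc14-3* arrays lie above all *snf1* arrays for the genes of G1, S phase and cohesin and the histones, and below them for the 4 genes of the *CLB2* cluster.

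Chaperone genes gave the largest share of lower calls of all 39 lists. Of 33 heat shock genes, many of them targets of the factor Hsf1, 22 were lower in *cdc14-3* and 0 higher, and the median difference was -1.38. Of these 33 genes, 18 rose and 4 fell in *snf1*, whereas 3 rose and 15 fell in *cdc14-3*. *FES1*, which recharges Hsp70, read 2.20, 2.55 and 1.84 in *snf1* against -0.75 and -0.86 in *cdc14-3* (SE 0.43, adjusted p = 0.00471). *APJ1*, a Hsp40 partner, read 3.38, 3.70 and 2.76 against 0.26 and 0.44 (SE 0.51, adjusted p = 0.00791). *CUR1*, the paralog of *BTN2*, read 2.12, 2.28 and 2.07 against -0.03 and -0.07 (-2.21, SE 0.33, adjusted p = 0.00537). All 3 genes rose in *snf1* with no call in *cdc14-3*. The lower group spanned the Hsp90, Hsp70, Hsp40 and mitochondrial classes, with *HSC82* (-1.78), *HSP82* (-1.50), *SSA2* (-1.45), *SSA1* (-1.40), *SIS1* (-1.98), *YDJ1* (-1.88), *MDJ1* (-1.75), *HSP78* (-1.55) and *HSP60* (-1.06). *HSP26* and *HSF1* itself were not called, at 1.37 and 0.30. The list mean was 1.09, 1.21 and 0.86 on the *snf1* arrays and -0.22 and -0.38 on the *cdc14-3* arrays, so the 90 min array did not stand apart here. At 2 h, 26 genes were lower and 1 was higher. Without *cdc14-3* replicate 3 the count was 7, and without its replicate 2 it was 0. The temperature was raised on both sides of every ratio, and the treated cells had been at 35 °C longer by the time in NaCl. How that added time bears on the strains was not tested. *RPN4*, the activator of proteasome genes, was the only member called among 33 proteasome genes, at 2.54, 2.09 and 1.55 against 0.13 and 0.09 (-1.95, SE 0.43, adjusted p = 0.0171).

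Hexose transporters split by member. Of 12 tested, 5 were lower in *cdc14-3* and 2 higher. *HXT7*, a high-affinity transporter, read 2.35, 0.76 and 0.53 against -1.18 and -0.87 (difference -2.24, SE 0.48, adjusted p = 0.0157), with its near-identical neighbor *HXT6* at -2.16. *HXT3*, a low-affinity transporter, read -0.50, 0.28 and 0.45 against -1.62 and -1.95 (-1.86, SE 0.28, adjusted p = 0.00546), and *HXT2* differed by -1.38. With *HXT4*, every lower member had all *cdc14-3* arrays below all *snf1* arrays, as did every lower feature with values on all 5 arrays. In contrast *HXT5*, the transporter of slow-growing and starved cells, read 4.77, 3.32 and 2.15 against 6.56 and 6.55 (3.14, SE 0.67, adjusted p = 0.0154), rising in both strains, and *HXT1* differed by 1.30 (SE 0.39, adjusted p = 0.0451). Leaving out *cdc14-3* replicate 3 left 2 lower and 0 higher, and leaving out its replicate 2 left 0 of each. Of 27 other genes of glucose sensing and repression, 2 were higher and 2 lower. *SIP2*, a subunit of the Snf1 complex, read -0.19, -0.49 and -0.55 against 0.71 and 0.60 (1.06, SE 0.22, adjusted p = 0.0137). *MTH1* and *REG2* (-1.09), a regulator of the phosphatase that opposes Snf1, were the lower ones, and *REG2* was not called on the 2 h arrays. The list's shares of 7.41% each way were below those of all features.

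Genes that depend on the Snf1 pathway through Adr1 and Cat8 were called in both directions. Of 22 gluconeogenic, glyoxylate and related genes, 3 were higher and 3 lower over all arrays, with a median of 0.07. These shares, 13.6% each, were not far from the 8.74% and 10.2% of all features. At 2 h, 7 were higher and 3 lower, with a median of 0.39. Against 0, 14 of them rose in *snf1* and 11 in *cdc14-3*. *ALD4*, the main mitochondrial aldehyde dehydrogenase, read 1.42, 0.25 and -0.07 against 3.64 and 3.34 (difference 2.96, SE 0.43, adjusted p = 0.00494). *GUT2*, which oxidizes glycerol phosphate in mitochondria, read 0.08, -0.55 and -0.59 against 1.62 and 1.69 (2.00, SE 0.27, adjusted p = 0.00453), and *MDH2* differed by 1.24. On the lower side *CRC1*, the carnitine carrier, read 3.33, 2.52 and 2.99 against 0.91 and 0.88 (-2.05, SE 0.39, adjusted p = 0.0114). *CRC1* rose in both strains and more so in *snf1*. Fatty acid oxidation gave 1 call each way among 16 genes, shares of 6.25% each that were below those of all features. The peroxisomal catalase *CTA1*, at 3.13, 2.46 and 1.74 against -0.26 and 0.85, was the lower (-2.15, SE 0.53, adjusted p = 0.0252). Of 23 glycolytic genes, 2 were higher, *GLK1* (1.28) and *TDH1* (1.14), a share near that of all features, and 0 were lower. The differences of 18 of the 23 were negative, with a median of -0.30, and at 2 h 3 were higher and 8 lower, with a median of -0.41. Minor isoforms stood out in the pentose phosphate pathway, where 3 of 11 genes were higher. These were *TKL2* at 4.91, 2.14 and 1.07 against 6.68 and 6.68, *NQM1* at 4.01, 2.19 and 1.66 against 6.10 and 5.82 (3.34, SE 0.60, adjusted p = 0.00868), and *GND2* (2.40). The 90 min *snf1* array read higher than the 2 h arrays for all 3 of these genes and still lay below the *cdc14-3* arrays.

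Osmotic stress genes were higher in *cdc14-3*. Of 18 genes of glycerol synthesis and osmotic targets, 9 were called higher and 0 lower, with a median of 1.13, and 15 of the 18 rose in *snf1* itself. *GRE1*, a hydrophilin, read 2.91, 0.46 and 0.65 against 4.78 and 4.94 (SE 0.62, adjusted p = 0.00805). *CTT1*, the cytosolic catalase, read 5.04, 2.78 and 1.76 against 6.33 and 6.10 (difference 3.02, SE 0.73, adjusted p = 0.0233). *DAK1*, a dihydroxyacetone kinase, read 1.23, 0.96 and 0.47 against 3.03 and 2.89 (2.07, SE 0.33, adjusted p = 0.00614). None of these genes overlapped between the strains, as was so for every called feature with values on all 5 arrays. *GRE1* and *CTT1* were highest in *snf1* on the 90 min array. The glycerol enzymes divided, as *GPP1* was higher (1.62) and *GPD1*, the first enzyme of the branch, was not called and differed by 0.03. *ENA1*, the main sodium pump, read 1.60, 0.57 and 0.14 against 3.05 and 2.67 (2.08, SE 0.43, adjusted p = 0.014), and its copies *ENA2* and *ENA5* differed by 1.97 and 2.04. These 3 pumps were among 5 higher genes of 24 for sodium, potassium and pH transport, with *TOK1* (0.80) and *CMP2* (0.56), while the proton pump *PMA2* was lower (-1.24). List means for the osmotic genes were 2.07, 1.54 and 1.03 in *snf1* and 2.94 and 2.77 in *cdc14-3*. On the 2 h arrays 9 genes were higher and 1 lower. Without *cdc14-3* replicate 3 the higher count was 3, and without its replicate 2 it was 0.

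Signaling genes of the Hog1 pathway gave 4 higher and 1 lower of 21. *MSB2*, a membrane sensor, read -1.13, -1.33 and -1.19 in *snf1* against 0.62 and 0.71 in *cdc14-3* (difference 1.88, SE 0.34, adjusted p = 0.00845). *PBS2*, the kinase directly above Hog1, read -0.69, -0.89 and -0.85 against 0.01 and 0.17 (0.89, SE 0.18, adjusted p = 0.0135). Both genes fell in *snf1* and had no call in *cdc14-3*. *HKR1* (0.96) and *RCK2* (0.75) were the other higher genes, and *SSK22*, a kinase of the other branch, was lower (-1.31). *HOG1* itself differed by 0.28 and was not called.

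Targets of Msn2 and Msn4 were higher for 10 of 27 genes and lower for 2, with a median of 0.84. *ALD3*, an aldehyde dehydrogenase, read 3.70, 2.00 and 1.17 against 6.08 and 5.65 (SE 0.62, adjusted p = 0.00767). *DDR2*, a classic multistress gene, read 2.20, 1.32 and 0.87 against 4.84 and 4.64 (difference 3.28, SE 0.57, adjusted p = 0.00788), and *RTN2*, a reticulon, differed by 3.17 (SE 0.49, adjusted p = 0.00546). Nearly every member responded in both strains, as 26 of 27 rose in *snf1* and 24 in *cdc14-3*. The lower members were the small heat shock protein *HSP42* (-1.62), which is also on the chaperone list, and *MSN4* itself (-1.14). List means were 2.01, 1.34 and 0.95 in *snf1* and 2.49 and 2.29 in *cdc14-3*, with the 90 min array nearest to *cdc14-3*. At 2 h, 15 genes were higher and 4 lower. Without *cdc14-3* replicate 3 there were 6 higher, without *snf1* replicate 2 there were 6, and without *cdc14-3* replicate 2 there were 0. Of 26 oxidative defense genes, 3 were higher, or 11.5%, near the share of all features, and 1 was lower, *CTA1* (-2.15). The peroxiredoxin *TSA2* read 0.33, -0.09 and -0.08 against 2.56 and 2.43 (2.44, SE 0.35, adjusted p = 0.00471), a rise in *cdc14-3* with no call in *snf1*.

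Storage carbohydrate genes gave more calls on the 2 h arrays, as did all features. Over all features, the higher share went from 8.74% to 17.4% and the lower share from 10.2% to 20%. Of 21 genes for trehalose and glycogen, 6 were higher and 0 lower over all arrays, but 14 were higher and 2 lower at 2 h. *PGM2*, phosphoglucomutase, read 2.36, 1.04 and 0.62 against 3.23 and 3.45 (difference 2.00, SE 0.44, adjusted p = 0.0174), and the difference was 2.51 at 2 h. *GSY2*, the major glycogen synthase, read 0.65, 0.23 and 0.13 against 2.14 and 1.93 (1.70, SE 0.27, adjusted p = 0.00633). *TPS1*, trehalose phosphate synthase, read 1.34, 0.93 and 0.31 against 2.64 and 2.43 (1.67, SE 0.29, adjusted p = 0.00762), and *TSL1* of the same complex differed by 1.76. The list mean of 1.78 on the 90 min *snf1* array was above the 1.43 and 1.42 of *cdc14-3*, whereas the 2 h *snf1* arrays lay below, at 0.86 and 0.58. The 90 min condition of *snf1* was a single array, so its heat time and that array cannot be told apart. In *cdc14-3 snf1* the list mean was 1.25 at 90 min and 1.12 on both 2 h arrays. The higher count was 13 without *snf1* replicate 1, 3 without *snf1* replicate 2, 4 without *snf1* replicate 3, 2 without *cdc14-3* replicate 3 and 0 without *cdc14-3* replicate 2. In the TCA cycle, 7 of 21 genes were higher and 2 lower. *CIT2*, the peroxisomal citrate synthase, read 0.45, 0.69 and 0.53 against 3.42 and 3.22 (2.76, SE 0.63, adjusted p = 0.0187). The subunits *SDH2* (1.27), *SDH3* (1.20) and *SDH4* (1.11) of succinate dehydrogenase and *PYC1* (1.33) were also higher, and *PYC2* (-0.95) was lower. Of 39 nuclear genes of the respiratory chain and ATP synthase, 2 were higher and 0 lower.

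**Figure D4:**
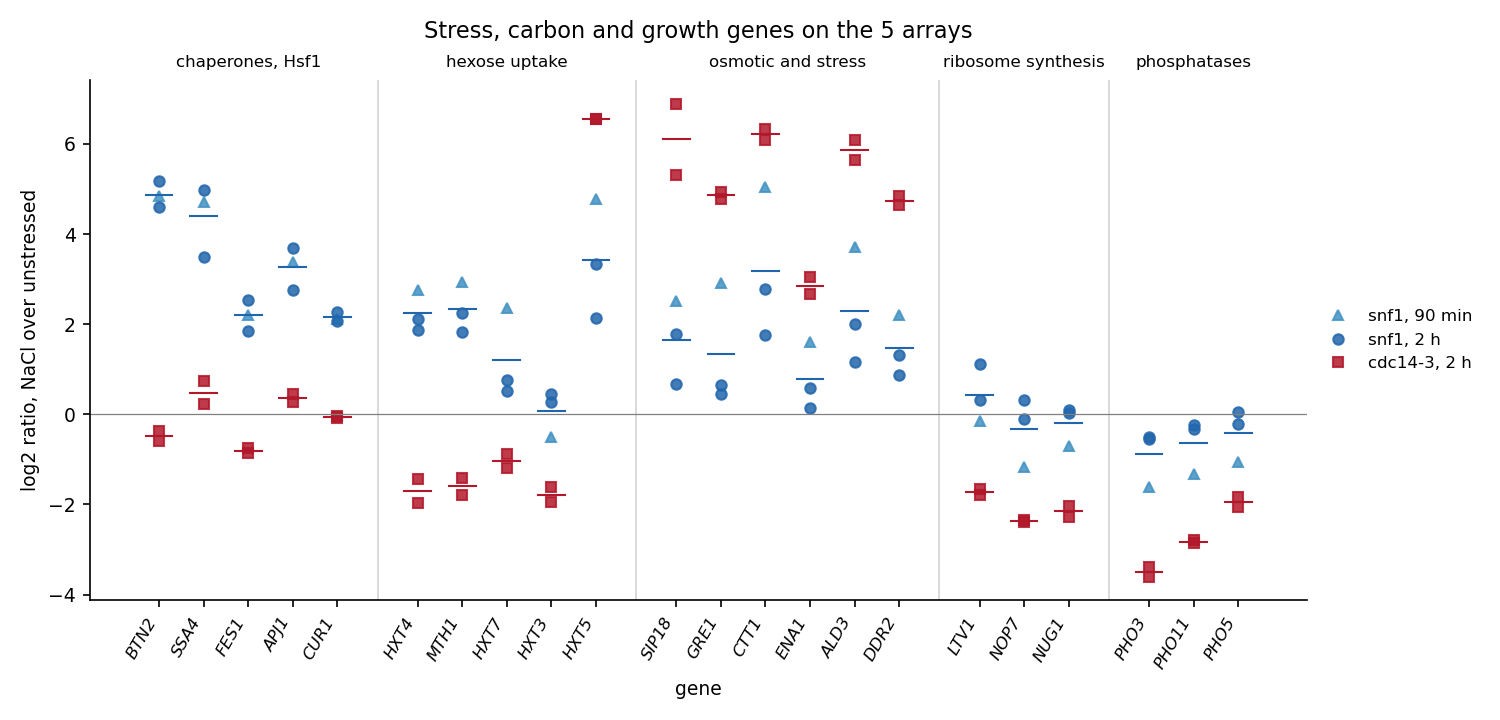
Log2 ratio (NaCl-treated over unstressed) of named stress, carbon and growth genes on each of the 5 arrays (triangles, *snf1* at 90 min; circles, *snf1* at 2 h; squares, *cdc14-3* at 2 h; short lines, strain means). Chaperone genes rose in *snf1* and lay near 0 in *cdc14-3*, hexose uptake genes split by member, and osmotic and stress genes were higher in *cdc14-3*, with the 90 min *snf1* array above the 2 h arrays.

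Ribosome synthesis genes were lower in *cdc14-3*, where more of them fell than in *snf1*. Of 116 genes for ribosome biogenesis and RNA polymerase I, 58 were lower and 0 higher, with a median of -0.94, and 113 of the 116 differences were negative. In *snf1*, 63 of these genes fell and 4 rose, and in *cdc14-3* 103 fell. *LTV1*, which helps export the small subunit, read -0.16, 1.12 and 0.32 against -1.79 and -1.66 (difference -2.15, SE 0.36, adjusted p = 0.00719). *NOP7*, needed for the large subunit, read -1.18, 0.33 and -0.11 against -2.34 and -2.39 (-2.04, SE 0.39, adjusted p = 0.0114). *NUG1*, a nuclear GTPase, read -0.70, 0.11 and 0.03 against -2.28 and -2.02 (-1.96, SE 0.34, adjusted p = 0.00797). On each of these genes the 90 min *snf1* array was the lowest of its strain and still lay above both *cdc14-3* arrays. The largest difference, *RRP36* at -2.57, had 0.46, 3.22 and 1.27 in *snf1*, a wide spread. List means were -0.94, -0.12 and -0.36 in *snf1* and -1.43 and -1.38 in *cdc14-3*. The count was 98 at 2 h and 97 without *snf1* replicate 1, 31 and 34 without *snf1* replicates 2 and 3, 11 without *cdc14-3* replicate 3 and 0 without its replicate 2.

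Cytosolic ribosomal protein genes were called mainly when *snf1* replicate 1, the 90 min array, was left out. Only 3 of 137, or 2.19%, were lower over all arrays, *RPS3* (-1.51), *RPL9A* (-1.22) and *RPL15A* (-1.05), but 98 of 137 were lower on the 2 h arrays, where the median was -0.79 against -0.41 over all arrays. The 137 include *RPP1*, whose product is part of RNase P and not of the ribosome. *RPS3* read -1.06, 0.43 and 0.16 against -1.42 and -1.92 (SE 0.39, adjusted p = 0.0287). List means were -1.56, -0.51 and -0.38 on the *snf1* arrays and -1.04 and -1.38 on the *cdc14-3* arrays, so the 90 min *snf1* array lay below both *cdc14-3* arrays and the 2 h arrays above them. In *cdc14-3 snf1* the mean was -1.24 at 90 min and -1.11 and -1.22 at 2 h. Without *snf1* replicate 1 the count was 90, and it was 0 without any 1 of the other *snf1* or *cdc14-3* arrays. The genes fell in both strains, 108 of them in *snf1* and 124 in *cdc14-3*. Of 73 mitochondrial ribosomal protein genes, 12 were lower and 0 higher. *MRPL32* read 0.51, 1.33 and 1.14 against -0.09 and -0.39 (difference -1.23, SE 0.28, adjusted p = 0.0182), and it was like *MRPS17* (-1.30) and *MRP10* (-1.29) in rising in *snf1* with no call in *cdc14-3*.

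**Figure D5:**
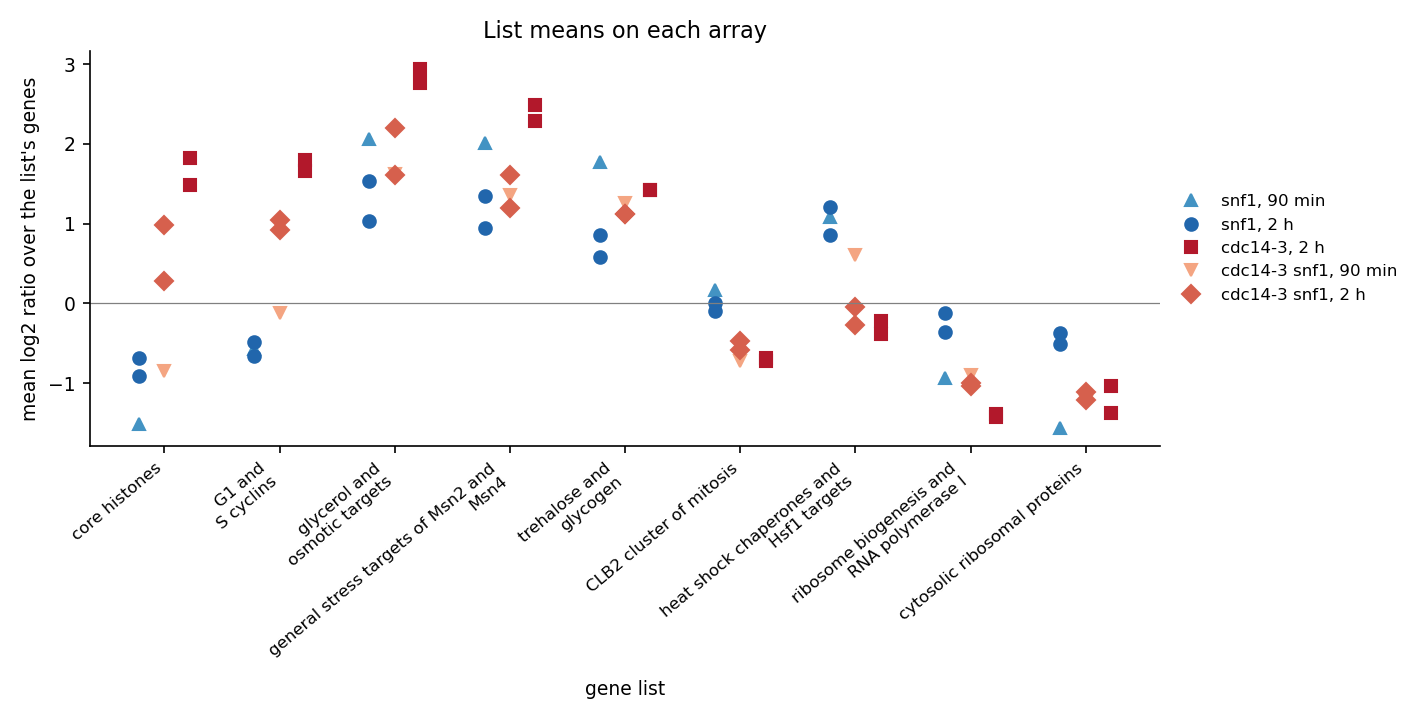
Mean log2 ratio (NaCl-treated over unstressed) over the tested genes of 9 lists on each of the 8 arrays (blue, *snf1*; red, *cdc14-3*; orange, *cdc14-3 snf1*; triangles, 90 min; other symbols, 2 h). Histone and cyclin means are below 0 in *snf1* and above 0 in *cdc14-3*, and for the ribosomal protein and storage carbohydrate lists the 90 min *snf1* array lies on the other side of *cdc14-3* from the 2 h *snf1* arrays.

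Of 28 genes of sulfur assimilation and methionine, 7 were lower in *cdc14-3* and 0 higher, with a median of -0.67. *SAM1*, which makes S-adenosylmethionine, read -1.72, -0.86 and -0.58 against -2.52 and -3.03 (difference -1.72, SE 0.32, adjusted p = 0.0104). *MET6*, methionine synthase, read -0.90, -0.16 and 0.19 against -1.53 and -2.37 (-1.66, SE 0.35, adjusted p = 0.0145), and *MET17* and *MET3* differed by -1.64 and -1.55. Amino acid synthesis under Gcn4 gave 5 lower and 1 higher of 52. The lower share, 9.62%, was near that of all features, and the higher share, 1.92%, was below it. *GDH1*, the main glutamate dehydrogenase of synthesis, read -1.04, -0.27 and -0.49 against -2.34 and -2.30 (-1.72, SE 0.32, adjusted p = 0.01). The counts at 2 h were 16 lower and 1 higher for the sulfur list and 17 lower and 1 higher for the Gcn4 list. Amino acid breakdown went the other way for some genes, with 5 of 29 higher and 2 lower. *CHA1*, which breaks down serine and threonine, read -0.81, -0.49 and -0.32 against 2.75 and 2.57 (3.20, SE 0.31, adjusted p = 0.00272), a fall on every *snf1* array and a rise on both *cdc14-3* arrays. *ARO10*, a decarboxylase of the route from amino acids to fusel alcohols, read 1.67, -0.02 and 0.07 against 3.56 and 3.63 (3.02, SE 0.49, adjusted p = 0.00646), and *CAR2* (1.61), *ARO9* (1.54) and *DAL80* (1.50) were higher too. The general amino acid permease *GAP1* (-2.09) and the urea transporter *DUR3* (-1.46) were lower.

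Pheromone response genes were lower in *cdc14-3* for 8 of 28 and higher for 0, with a median of -0.44. *PRM1*, which acts in the fusion of mating cells, read 3.70, 2.64 and 2.79 against 0.01 and 1.09 (difference -2.49, SE 0.52, adjusted p = 0.0146), a rise in *snf1* with no call in *cdc14-3*. *BAR1*, the protease that degrades alpha factor, read -0.13, 0.13 and 0.22 against -1.50 and -1.75 (-1.70, SE 0.21, adjusted p = 0.00435). *FAR1*, which stops the cycle in G1 (-1.10), the pheromone gene *MFA2* (-1.10) and the receptor *STE2* (-0.98) fell in both strains. Cell wall integrity genes were higher for 7 of 26 and lower for 0. *CWP1*, a wall mannoprotein, read 0.50, 0.69 and 0.88 against 2.43 and 2.18 (1.62, SE 0.34, adjusted p = 0.0145), and *GSC2*, a glucan synthase, read 0.22, -0.33 and -0.24 against 1.43 and 1.56 (1.61, SE 0.25, adjusted p = 0.00546). *PKC1*, the kinase at the head of the pathway, read -0.76, -0.97 and -1.03 against 0.04 and 0.21 (1.04, SE 0.20, adjusted p = 0.0119), so that its difference came with a fall in *snf1* and no call in *cdc14-3*.

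In the phosphate regulon, 4 of 22 genes tested were lower in *cdc14-3*, all of them acid phosphatases, and 2 were higher, with a median of 0.07. *PHO3*, the constitutive acid phosphatase, read -1.62, -0.55 and -0.50 against -3.60 and -3.39 (difference -2.61, SE 0.44, adjusted p = 0.00719), and *PHO5*, the repressible one, read -1.05, -0.22 and 0.05 against -2.05 and -1.83 (-1.53, SE 0.34, adjusted p = 0.0174). *PHO11* and *PHO12*, which are near-identical, differed by -2.20 and -2.18. The higher genes were *PHM7* (3.58) and *PHO89*, a sodium and phosphate cotransporter, which read 0.67, 0.30 and 0.24 against 1.94 and 2.94 (2.03, SE 0.52, adjusted p = 0.0279).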

How the data were processed

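The authors deposited 1 normalized log2 ratio per feature and array, from 2-color whole-genome tiled arrays comparing cDNA of NaCl-treated cells with that of unstressed cells. The base of the logarithm is likely 2 by the study's methods, but it is not stated with the values, and how probes were combined is not given in the sources used here. The dyes ran the same way on every array, so a dye bias cancels in a difference between strains. Each array's median was 0. Values were used as deposited. Features were named from a RefSeq gene table for assembly R64, which matched 5984 of 6868. In limma 3.58.1 (R 4.3.3), strain means were estimated from all 8 arrays together over the 6135 features with at least 2 values in every strain, and again from the 6 arrays held for 2 h. Features were called at an adjusted p under 0.05 (Benjamini-Hochberg). The scripts were tested on simulated data. Named genes were *SNF1*, *CDC14*, the 15 largest called differences each way with a symbol and no overlap between the arrays, and up to 5 called genes per list and direction; *HSC82*, *HSP82*, *SSA1*, *SSA2*, *SIS1*, *YDJ1*, *MDJ1*, *HSP78*, *HSP60* and *GPP1* were added after their values were seen, and some genes that were not called are given for their counts; 1 list and 1 named gene are not reported here. The comparison, the lists and the members were chosen with earlier results of these data known. Alternatives were other sets of arrays, heat time or replicate as a term, array weights, variance priors, filters, scalings and Storey's q.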

Additional observations from a re-analysis of the deposited data

Results flagged for a closer look

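A result drew attention when the 2 strains' responses to NaCl differed by a test of the difference itself. By this criterion, 1161 features differed between *cdc14-3* and *snf1* in limma. Among them, 60 fell in *snf1* and rose in *cdc14-3*, with both responses past the test against 0; *TOS6*, *HTA2*, *CLN2* and *CHA1* are examples. Another 42 rose in *snf1* and fell in *cdc14-3*, among them *HXT4*, *MTH1*, *HOF1* and *CDC20*. No group held the 4 arrays needed to examine single outlying arrays.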

How the results depend on the processing

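Against the 1161 features called as reported (536 higher in *cdc14-3*, 625 lower), limma called 2278 with the 2 h arrays only (1060 and 1218), 2087 with the 2 strains' 2 h arrays only (948 and 1139), 2548 with array weights (1176 and 1372) and 1872 with Storey's q (884 and 988). Array weights gave *snf1* replicate 1 a weight of 0.214, against 0.85 to 3.2 for the 2 h arrays. Leaving out each array in turn gave 0 to 1911 features, 0 to 874 of them higher and 0 to 1037 lower; the fit without *cdc14-3* replicate 2 gave the 0, and that without *snf1* replicate 1 the highest counts. On the 2 h arrays the same gave 1203 to 2093 in place of 2278, with 482 to 953 higher and 672 to 1140 lower. The cause of these shifts was not tested. *SNF1*, not called, was the only named gene to turn its sign: it was 0.0594 at 2 h, with all strains or 2, and -1.36 to 0.0594 when an array was left out. Quantile normalization gave 684 higher and 507 lower and moved the median difference to 0.05 (at 2 h, 1184 and 950). The replicate number as a block gave 891 features (391 and 500), 824 of them shared with the 1161. Same-numbered *snf1* and *cdc14-3* arrays deviated from their means with correlations of 0.02 and -0.21. For same-numbered pairs with *cdc14-3 snf1* these correlations were 0.04 to 0.26. The 2 *cdc14-3* arrays mirror each other around their mean, so these values cannot settle whether the numbers mark pairs. The numbers were not taken as pairing. The other fits called 834 to 1445 features. Some single calls depended on the fit: of 20 alternatives, *REG2* kept its call in 5, *MFA2* in 8, and *CDC14* and *SWI4* in 9 each. Medians of the glucose sensing, gluconeogenic, fatty acid oxidation, pentose phosphate, proteasome, amino acid breakdown and phosphate lists changed sign in some fits, and those of the other 32 lists in none. With 2 *cdc14-3* arrays, the number of arrays limits precision.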

Other observations

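Calls in smaller groups went in both directions. Of 25 genes of iron use, 4 were higher in *cdc14-3* and 3 lower. *FET3*, the multicopper oxidase of iron uptake, read -0.18, -0.32 and -0.17 on *snf1* replicates 1 to 3 against 2.49 and 1.24 on *cdc14-3* replicates 2 and 3 (difference 2.09, SE 0.41, adjusted p = 0.0123, limma), and *TIS11*, which degrades transcripts when iron is short, differed by 1.21. *FET4*, the low-affinity iron transporter, was lower, at -1.16, -0.66 and -0.41 against -2.42 and -2.66 (-1.80, SE 0.28, adjusted p = 0.00606). *TIS11* and its paralog *CTH1* (-1.09) therefore differed in opposite directions.

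Of 29 genes of ergosterol synthesis and its regulation, 6 were lower in *cdc14-3* and 1 was higher, *ERG4* (0.96), the last enzyme of the pathway. The repressor *ROX1* read 0.29, 0.04 and -0.06 in *snf1* against -1.32 and -1.30 in *cdc14-3* (difference -1.40, SE 0.33, adjusted p = 0.0219), and *ERG6* (-1.07) and *ERG7* (-0.97) were lower too. Among 37 autophagy genes 5 were higher and 1 was lower. *ATG8*, the ubiquitin-like protein of the autophagosome, read 0.05, 0.26 and 0.52 against 1.22 and 1.53 (1.10, SE 0.26, adjusted p = 0.0226), whereas *ATG14*, a subunit of the lipid kinase complex, read 3.14, 2.44 and 1.97 against 0.96 and 1.29 (-1.39, SE 0.35, adjusted p = 0.026). Of 23 genes of purine synthesis, 1 was higher, *ADE16* (0.73), and 1 was lower, *AAH1*, shares of 4.35% each that are below those of all features. Among 424 tested features with no match in the gene table, 39 were higher and 39 lower, shares near those of all features.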
